A study of Rattus norvegicus with 24 samples.

Results

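The 10 genes described here encode glutathione transferases (Gsta4, Gsta1, Gstp1), glutathione peroxidases (Gpx1, Gpx3, Gpx4), thioredoxin reductase (Txnrd1) and superoxide dismutases (Sod1, Sod2, Sod3), and they are 10 of the 32881 genes shared by the count files. They were chosen by their place in glutathione and antioxidant defence, with earlier results of these data known, and Gsta4 was selected on its measured level in PEP1-like neurons of injured and sham ganglia. That contrast is therefore given below without a test. Tests of Gsta4 in other neurons used the same DRG samples, so they are not independent of that choice. Levels were read in single dorsal root ganglion (DRG) neurons that had at least 500 genes, at least 1000 unique molecular identifiers (UMIs) and under 5% of their UMIs on mitochondrial genes. Of 1464 cells, 1433 passed. All rats were male Sprague-Dawley (SD) animals of unstated age. In spared nerve crush (SNC), the tibial and common peroneal branches of the sciatic nerve were crushed and the sural branch was left intact. In the sham operation the nerve was exposed without a crush. For the labelled samples, sham and SNC alike, the nerve had also been exposed before the operation and dye injected into its branches.

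The retrogradely labelled neurons formed 16 DRG samples, with 4 sham samples (Xin, 4, 10 and 18), 4 at SNC 1 d (13, 16, 17-1 and 17-2), 3 at SNC 3 d (14, 15 and 17-3) and 5 at SNC 7 d (S, 8, 9, 19-1 and 19-2). They gave 930 cells that passed, 215 from sham, 238 at 1 d, 237 at 3 d and 240 at 7 d. A further 7 libraries added to the series hold 503 such cells from sham rats at 0, 1, 3 or 7 days, with 3, 2, 1 and 1 libraries. UMIs per DRG sample ranged from 4002503 to 28975829, and those per added library from 14004136 to 40732975. The cell names carry no dye colour, so crushed and spared neurons are pooled in each SNC sample, and the labels do not say which samples came from different rats. Reverse transcription fell in 2019 for samples Xin, 4, 10, S, 8 and 9 and in 2020 for the other labelled samples, so that all SNC 1 d and SNC 3 d samples and only sham sample 18 belong to 2020. Samples 17-1, 17-2, 17-3, 19-1 and 19-2 were all reverse transcribed on the same day. Xin and S were sequenced on an earlier date than the other labelled samples.

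Some properties of the groups bear on every comparison. Neuronal markers were high throughout: the summed level of 6 such genes was 7092 to 9333 CPM (UMIs of a gene scaled to a common total in each sum) in labelled samples and 5905 to 8544 CPM in added libraries. Sprr1a, a gene induced in axotomized neurons, was already at 65.3 to 282 CPM in the labelled sham samples, within and above the 54.9 to 243 CPM of the SNC samples, and it had 6 UMIs in all added cells. Atf3, a transcription factor of the same injury response, was at 364 to 950 CPM in labelled samples, sham and SNC together. In added libraries it was at 76.2 to 198 CPM. A summed level cannot tell fewer cells of a type from less RNA of a gene per cell.

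Glutathione is a small peptide whose thiol detoxifies reactive molecules. Transferases join it to electrophiles, and Gsta4 is known for its activity on the lipid peroxidation product 4-hydroxynonenal. Glutathione peroxidases use it to reduce peroxides: Gpx1 in the cytosol and mitochondria, Gpx3 as a secreted enzyme, and Gpx4 on phospholipid hydroperoxides in membranes. Txnrd1 keeps cytosolic thioredoxin reduced, and it is, like these peroxidases, a selenoprotein. Superoxide dismutases turn superoxide into peroxide in the cytosol (Sod1), the mitochondrial matrix (Sod2) and the extracellular space (Sod3). Several of these genes are induced by the transcription factor Nrf2 through antioxidant response elements.

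Promoter sequences are shown for Gsta4, the enzyme with the largest log2 difference between SNC 1 d and sham samples, and for Sod2, Txnrd1 and Gpx3, which differed between Sprr1a-high and Sprr1a-low neurons. They are RefSeq sequences of the rat build GRCr8, whereas the counts were made on Rnor_6.0. Each runs 5′ to 3′ on the gene's strand from 250 bases before the start of the transcript to 50 bases after it. The capitals mark the core of the antioxidant response element, TGACNNNGC, or its reverse complement GCNNNGTCA.
Gsta4, chr8:87947015-87947314, plus strand: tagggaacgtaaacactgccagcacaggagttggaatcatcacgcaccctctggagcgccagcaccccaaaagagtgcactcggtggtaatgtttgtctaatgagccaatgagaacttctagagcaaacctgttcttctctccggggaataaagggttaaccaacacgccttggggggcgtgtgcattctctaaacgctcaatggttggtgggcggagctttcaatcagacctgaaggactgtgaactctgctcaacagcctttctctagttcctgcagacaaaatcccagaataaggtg
Sod2, chr1:50050119-50050418, minus strand: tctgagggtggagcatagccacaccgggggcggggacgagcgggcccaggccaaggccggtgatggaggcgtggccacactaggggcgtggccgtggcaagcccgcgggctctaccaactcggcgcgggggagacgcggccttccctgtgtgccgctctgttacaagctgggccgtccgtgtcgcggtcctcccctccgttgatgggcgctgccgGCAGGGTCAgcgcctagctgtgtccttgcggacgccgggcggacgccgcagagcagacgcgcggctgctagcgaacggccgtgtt
Txnrd1, second of 2 listed starts, chr7:22755855-22756154, minus strand: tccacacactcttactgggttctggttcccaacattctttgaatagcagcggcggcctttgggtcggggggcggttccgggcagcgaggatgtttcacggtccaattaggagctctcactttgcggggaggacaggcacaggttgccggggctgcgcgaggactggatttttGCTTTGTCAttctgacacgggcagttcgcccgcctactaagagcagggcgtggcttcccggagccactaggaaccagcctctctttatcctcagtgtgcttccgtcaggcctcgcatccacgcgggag
Gpx3, chr10:39529085-39529384, plus strand: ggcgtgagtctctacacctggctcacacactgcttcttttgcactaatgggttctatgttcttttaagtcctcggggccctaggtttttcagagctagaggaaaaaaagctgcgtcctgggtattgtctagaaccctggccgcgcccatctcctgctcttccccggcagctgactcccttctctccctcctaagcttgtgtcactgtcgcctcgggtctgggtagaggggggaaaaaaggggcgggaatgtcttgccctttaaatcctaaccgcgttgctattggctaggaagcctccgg
The core was searched on both strands. It lies in the windows of Sod2 (its first base 35 bases before the start), Txnrd1 (78 bases before), Gstp1 (61 bases before) and Gsta1 (after the start), that is in 4 of the 9 genes with an entry. Of the 2 Txnrd1 windows the second alone holds it. Some genes have several windows and a gene was counted for any of them, whereas the share over the table is per window, 4038 of 33469 (12.1%). The windows of Gsta4 and Gpx3 do not hold these letters, and neither do those of Gpx1, Gpx4 and Sod1. A match describes the sequence only. No binding was measured.

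The 10 genes ranged from abundant to nearly undetected in labelled neurons. UMIs sit at the 3′ end of each cDNA, so a level counts molecules and is not divided by transcript length. The mean over 16 DRG samples was 583 ± 89.3 CPM (SD) for Sod2, 554 ± 65.0 CPM for Sod1, 359 ± 42.7 CPM for Gstp1 and 352 ± 49.2 CPM for Txnrd1, and each of these 4 genes had a UMI in at least 99.03% of cells. Sod2 and Sod1 did not differ beyond their spread, and neither did Gstp1 and Txnrd1. Gpx1 followed at 124 ± 45.2 CPM. Gpx3 was at 41.4 ± 28.1 CPM, Gsta4 at 23.8 ± 18.3 CPM, Gsta1 at 12.5 ± 9.57 CPM and Sod3 at 4.98 ± 7.11 CPM, and in these genes samples differed from each other by a large part of the mean. The 93 cells with the most UMIs of Gsta1 held 91.7% of its UMIs, whereas for Gstp1 such cells held 27.0%.

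Gpx4 was close to undetected. It had 138 UMIs in 82 of 930 labelled cells, 0.50 ± 0.26 CPM over the 16 samples, and 70 UMIs in the added cells. It was too low for the edgeR filter and has no test, and the cause of its low count was not tested. Gpx2, another glutathione peroxidase and no member, was at 449 ± 86.2 CPM. By these counts it was the most abundant of the 8 listed peroxidases.

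The labelled neurons fell into 10 clusters, which were named from marker genes as PEP1-, PEP2- and PEP3-like peptidergic nociceptors, NP-like nonpeptidergic nociceptors, SST-like pruriceptors (clusters 5 and 7), NF-like neurons with neurofilament heavy chain (clusters 3 and 4) and Trpm8 cold-sensing-like neurons, with 1 cluster left unnamed. Cluster 7 also held 16 of 27 PEP3 markers above the other cells. Gpx3, Gsta1, Gsta4 and Sod3 were among the 2000 genes used for clustering. Levels by cluster are therefore a description without a test. Gpx3 and Txnrd1, which the study counts among its PEP3 and PEP1 markers, were left out of the markers used for naming.

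Gpx3 had the most uneven profile of the widely detected genes. In PEP3-like neurons it averaged 169 ± 79.4 CPM (SD over 11 DRG samples with at least 3 such cells), against 31.6 CPM in the other neurons of the same samples, and it was higher there in 11 of 11 samples. It was lowest in the SST-like cluster 5 (10.3 ± 8.06 CPM), the PEP2-like cluster (11.4 ± 8.36 CPM) and the NP-like cluster (11.8 ± 13.5 CPM), which did not differ beyond their spread. Gstp1 was also highest in PEP3-like neurons, at 545 ± 73.8 CPM, and lowest in the NF-like cluster 3, at 234 ± 84.1 CPM. Over all samples Gpx1 averaged 185 ± 65.0 CPM in cluster 3, above the other neurons in 11 of 12 samples, and 136 ± 54.1 CPM in PEP3-like neurons. Over all NF-like and all PEP3-like cells of a group it was 137 and 208 CPM in sham, 187 and 160 CPM at 1 d, 201 and 120 CPM at 3 d, and 148 and 95.6 CPM at 7 d. Its lowest level was 70.4 ± 21.7 CPM, in PEP2-like neurons.

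Among the superoxide dismutases, Sod2 varied more between clusters than Sod1. Sod2 averaged 1039 ± 113 CPM in Trpm8 cold-sensing-like neurons and was above the other neurons in 5 of 5 samples. It was 738 ± 95.3 CPM in SST-like cluster 5 and 718 ± 79.2 CPM in PEP1-like neurons, again above the other neurons in each sample (12 of 12 and 16 of 16). Its lowest mean was 440 ± 65.2 CPM in NP-like neurons, below the rest in 8 of 8 samples, next to 464 ± 52.2 CPM in NF-like cluster 4 and 465 ± 41.6 CPM in SST-like cluster 7. The cluster means of Sod1 stayed between 467 CPM in NF-like cluster 3 and 641 CPM in PEP3-like neurons. Txnrd1 was highest in PEP1-like neurons, at 450 ± 72.3 CPM against 335 CPM in the other neurons, and was higher there in 16 of 16 samples. Its lowest mean was 228 ± 20.1 CPM, in SST-like cluster 7, below the rest in 8 of 8 samples. The 2 SST-like clusters thus differed in both Sod2 and Txnrd1, and the heat map of cluster levels shows this as neighbouring columns of unlike shade.

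Gsta1 and Sod3 were concentrated in the unnamed cluster 8. Gsta1 belongs to a family of close copies, so its count is uncertain where a read fits several of them. Its 42 cells were 4.52% of the labelled cells and held 3.65% of their UMIs, and they carried 65.5% of the Gsta1 UMIs and 71.9% of the Sod3 UMIs. In the 7 DRG samples with at least 3 such cells, Gsta1 averaged 181 ± 61.3 CPM in cluster 8 against 4.20 CPM in the other neurons, and Sod3 averaged 84.1 ± 44.6 CPM against 1.5 CPM. Both were higher in cluster 8 in 7 of 7 samples. Cells of cluster 8 with a Gsta1 UMI made up 92.9% of it, against 17.1% of PEP1-like and 44.6% of NF-like cluster 4 cells. Gpx3 was also high there, at 122 ± 87.1 CPM, while Sod1 (580 CPM), Txnrd1 (347 CPM) and Gstp1 (449 CPM) lay within the range of the named clusters.

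Of the listed glial genes, some were higher in cluster 8 and others were not. In cluster 8, Apoe, a lipid carrier abundant in satellite glia, was at 1804 CPM against 72.3 CPM in the other labelled cells, Fabp7 at 73.6 CPM against 2.45, and Sparc at 526 CPM against 18.8. Pmp22 and S100b, the most abundant glial genes of the list, were high in both. Pmp22 was 901 against 822 CPM, and S100b was lower in cluster 8, at 259 against 437 CPM. Glul, another listed glial gene, was 103 against 108 CPM. Of the most abundant immune genes, Cd74 was 48.2 against 4.12 CPM, Lyz2 38.2 against 2.76 CPM and Aif1 11.2 against 9.07 CPM. Col1a1 was 22.0 against 2.08 CPM, whereas Dcn (1.27 against 1.74 CPM) and Flt1 (0.85 against 1.13 CPM) were not higher. Neuronal Uchl1 (2087 against 2070 CPM) and Tubb3 (2487 against 2173 CPM) were alike in cluster 8 and the other cells. Kcnj10, which defines satellite glia, was at 0.64 CPM in cluster 8 and at 0 in the other labelled cells. The part of glial RNA in the Gsta1 and Sod3 values was not tested.

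The share of cells in cluster 8 differed between samples, from 0% in 19-2 to 12.5% in 17-1 and 29.2% in sham Xin, and the 2 samples with the highest shares also had the highest levels of Gsta1 and Sod3. Gsta1 was 38.7 CPM in Xin and 30.0 CPM in 17-1, the 2 highest values, and 1.44 to 15.8 CPM in the other 14 samples. Without cluster 8 it was 3.07 CPM in Xin and 10.4 CPM in 17-1. Sod3 was 11.7 CPM in Xin and 28.3 CPM in 17-1, and 0.38 and 5.87 CPM without the cluster. The other samples did not follow the share: sham 10, with 2.13% of its cells in cluster 8, had 15.8 CPM of Gsta1 and 6.65 CPM of Sod3, and sample S, with 6.25%, had 2.86 CPM of Sod3. In the added libraries, a separate clustering gave 7 clusters, and the one highest in glial genes, cluster 0, also led for both: Gsta1 was 30.7 ± 22.5 CPM and Sod3 was 21.4 ± 14.7 CPM (n = 6 libraries with at least 3 such cells), next to 13.8 ± 2.64 CPM and 7.12 ± 3.91 CPM in the NF-like cluster (n = 5).

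**Figure D1:**
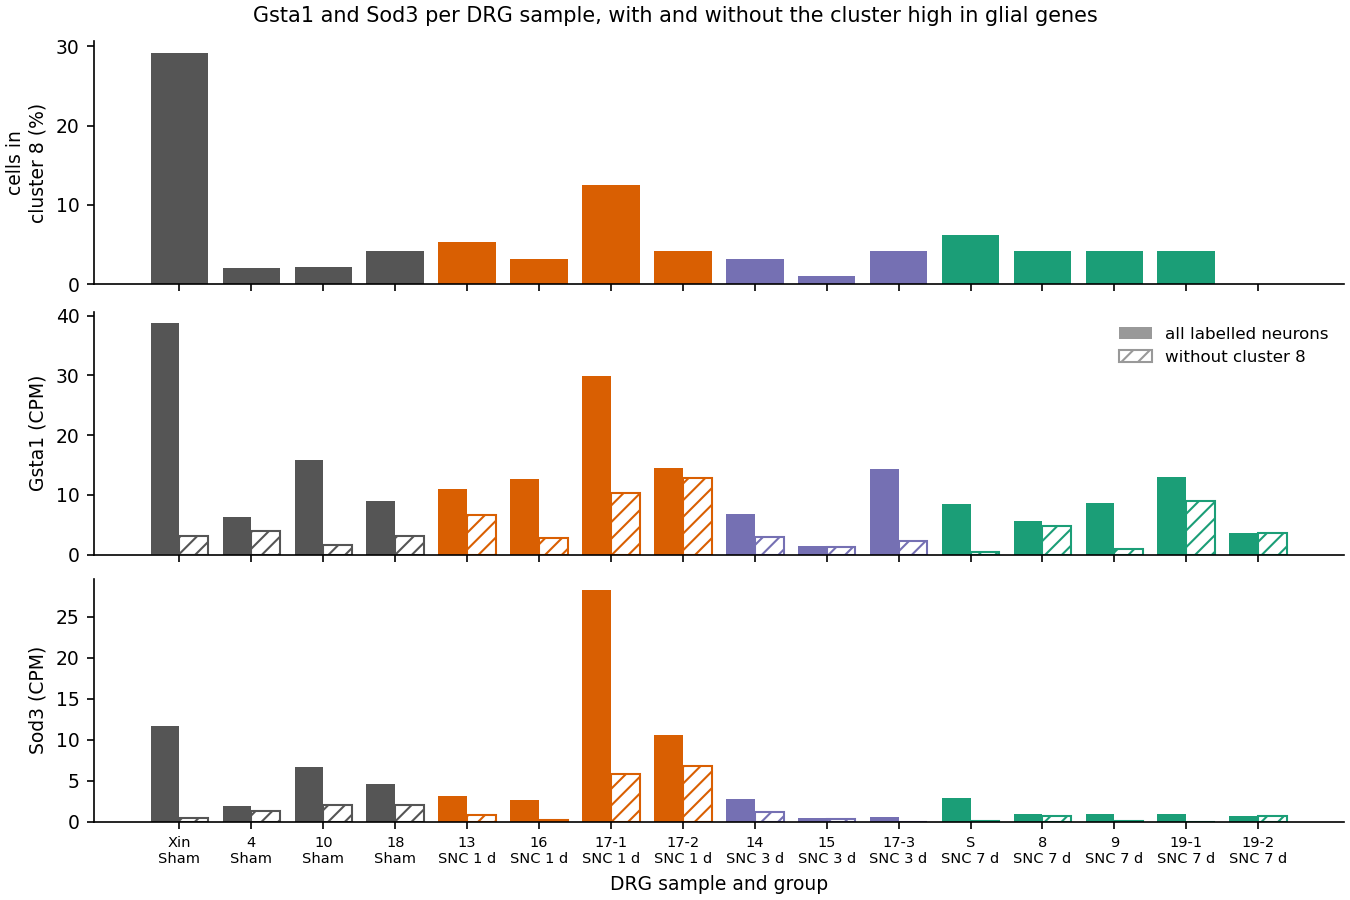
Share of cells in cluster 8 (%, top) and level of Gsta1 and Sod3 (CPM) in each labelled DRG sample, with filled bars for all neurons and hatched bars without cluster 8. The values of sham Xin and of SNC 1 d sample 17-1 fall most when the cluster is left out.

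The first comparison asks whether the enzymes differ between SNC and sham ganglia over all labelled neurons. With UMIs summed per DRG sample and edgeR's quasi-likelihood test, 0 of 14239 genes (0%) passed an adjusted p of 0.05 at SNC 1 d, 0 (0%) at 3 d, 0 (0%) at 7 d and 0 (0%) for the mean of the SNC groups, so no gene of the set was called. At an unadjusted p under 0.05 the same test gave 1239, 589, 464 and 820 genes over the whole table, and DESeq2 called 17, 1, 0 and 0 genes, none of them among the enzymes. Outside the PEP1-like cluster, edgeR called 0 of 13984 genes (0%) in each of the same 4 comparisons, with 1204, 591, 544 and 814 genes at an unadjusted p under 0.05, and DESeq2 called 5, 1, 1 and 1. Of the 10 enzymes 9 were tested. Of the listed injury genes 7 were tested, and 0 were called in each comparison. Over all labelled neurons their median log2 fold change was -0.21, -0.23 and -0.18 at 1, 3 and 7 d. For all genes it was -0.0059, -0.0049 and -0.0061. Outside the PEP1-like cluster the median of the injury genes was -0.27, -0.45 and -0.21.

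Gsta4 had the largest log2 difference of the enzymes at SNC 1 d. Outside the PEP1-like cluster it was 20.5 CPM in sham Xin, 0.59 CPM in sham 4, 1.2 CPM in sham 10 and 15.6 CPM in sham 18. At SNC 1 d it was 29.2, 49.9, 81.3 and 39.1 CPM in samples 13, 16, 17-1 and 17-2, at SNC 3 d 9.56, 10.1 and 25.0 CPM in samples 14, 15 and 17-3, and at SNC 7 d 25.1, 27.2, 13.1, 22.1 and 30.9 CPM in samples S, 8, 9, 19-1 and 19-2. The 4 samples at 1 d lay above each sham sample, while the 3 d and 7 d samples overlapped with sham Xin and sham 18. Shams 4 and 10 stood apart, with 6 and 13 UMIs of Gsta4 in all their cells outside the PEP1-like cluster. The log2 fold change in edgeR's quasi-likelihood test was 2.35 (SE 0.77) at 1 d, with an unadjusted p of 0.0077 and an adjusted p of 0.546 over all genes. It was 0.64 (SE 0.80) at 3 d, 1.29 (SE 0.72) at 7 d and 1.43 (SE 0.66) for the mean of the SNC groups, with adjusted p of 0.974, 1.00 and 0.851. These do not pass the threshold. Sham 4 and sample 8 were reverse transcribed on the same day, as were sham 10 and sample 9, and Gsta4 was higher in the SNC sample of either pair (27.2 against 0.59 and 13.1 against 1.2 CPM). With that day as a block in edgeR, an alternative added after seeing the data in which shams 4 and 10 alone set the sham level, the log2 fold changes were 5.47 (SE 0.82) at 1 d, 4.31 (SE 0.87) at 3 d, 4.36 (SE 0.65) at 7 d and 4.71 (SE 0.72) for the mean, with adjusted p of 0.211, 0.347, 1.00 and 0.397.

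In the added sham libraries Gsta4 over all neurons was 23.3, 8.47 and 28.4 CPM at 0 days (S1, S2 and S7), 15.0 and 23.1 CPM at 1 day, 14.4 CPM at 3 days and 14.7 CPM at 7 days. On the same scale, over all labelled neurons, it was 19.2, 0.54, 1.08 and 14.3 CPM in shams Xin, 4, 10 and 18. All 7 added libraries were above shams 4 and 10, and 6 of the 7 lay within the 8.90 to 31.5 CPM of the SNC 3 d and SNC 7 d samples, with S2 below them. In sham Xin, cluster 8 held 70.1% of the Gsta4 UMIs. Without that cluster the log2 fold change outside the PEP1-like cluster was 2.84 (SE 0.72) at 1 d and 1.94 (SE 0.63) for the mean of the SNC groups, with adjusted p of 0.516 and 0.850 in edgeR. The removal of this cluster was chosen after seeing the data.

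**Figure D2:**
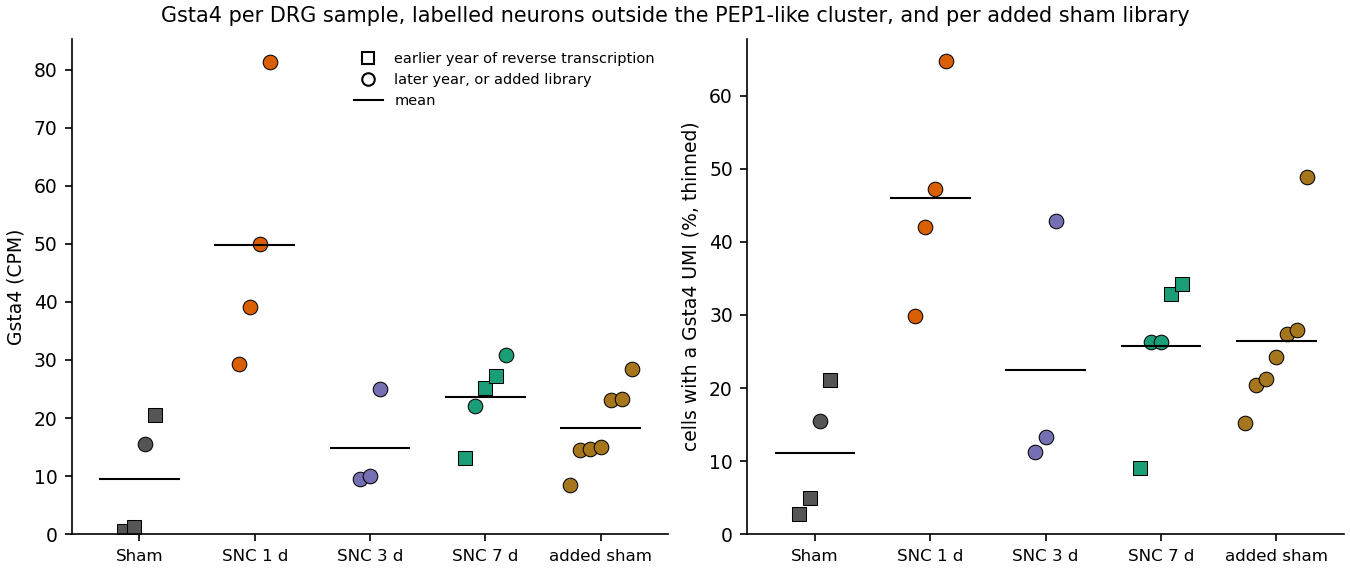
Level of Gsta4 (CPM, left) and share of cells with a Gsta4 UMI after thinning to 20000 UMIs (%, right), outside the PEP1-like cluster for labelled DRG samples and over all cells for added sham libraries. Each point is a sample or library, squares mark the earlier year of reverse transcription and lines the group mean. Shams 4 and 10 sit near 0, and the SNC 1 d samples are the highest group.

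The share of neurons with a Gsta4 UMI gave the same order with less weight on single cells. Each cell was thinned to 20000 UMIs, which left out 11, 10, 14 and 9 labelled cells with fewer (sham, 1 d, 3 d and 7 d). Outside the PEP1-like cluster the sham samples had shares of 21.1% (Xin), 5.00% (4), 2.7% (10) and 15.5% (18). The shares were 29.9% to 64.7% at 1 d, 11.3% to 42.9% at 3 d and 9.09% to 34.3% at 7 d, so that 1 d was above all sham samples and the later times overlapped with them. The mean was 31.7% ± 16.2 (SD, n = 12) after SNC and 11.1% ± 8.68 (n = 4) in sham, a difference of 20.6 points with a two-sided exact permutation p of 0.0324. Gsta4 was selected in PEP1-like cells of these same samples, and the p-value does not allow for that. Without thinning the means were 72.6% and 32.9%. Within the samples of the earlier year the difference was 15.8 points, and the exact permutation p of 0.2 was above the smallest p of 0.1 that this design allows. The later year holds 1 sham sample. Leaving out sham 4, 10 or 18 moved the exact permutation p to 0.0835, 0.0945 and 0.0505, with differences of 18.6, 17.8 and 22.1 points. No cell class that should lack Gsta4 is known here, so no background share can be given. Added libraries, thinned alike and over all their cells, had shares of 15.2% to 48.9%.

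By neuron class, Gsta4 differed between SNC and sham samples in NF-like and SST-like neurons. In NF-like neurons it was 0.22, 0.95 and 4.76 CPM in shams 4, 10 and 18 (Xin had fewer than 3 such cells). It was 29.9, 54.0, 61.0 and 35.4 CPM in samples 13, 16, 17-1 and 17-2 at 1 d, 8.46, 8.57 and 14.0 CPM in samples 14, 15 and 17-3 at 3 d, and 12.8, 21.1, 27.1, 17.7 and 46.2 CPM in samples S, 8, 9, 19-1 and 19-2 at 7 d. All 12 SNC samples were above all 3 sham samples. The difference in mean log2(CPM + 1) was 3.34, with an exact permutation p of 0.00220, the smallest that this design allows, and 0.0110 after adjustment over 5 classes. The p-values by class do not allow for the selection of Gsta4 in PEP1-like cells of the same samples. It was seen in both years: within 2019, samples S, 8 and 9 were above shams 4 and 10, and within 2020 all 9 SNC samples were above sham 18. Most NF-like cells were in cluster 4 at 1 d and in cluster 3 at 3 d and 7 d. In cluster 3 the sham values were 0, 2.28 and 2.14 CPM and the SNC values 9.34 to 57.5 CPM, and in cluster 4 they were 0.51, 0 and 7.02 CPM and 3.00 to 61.0 CPM.

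In SST-like neurons Gsta4 was 2.43, 2.61 and 30.0 CPM in shams 4, 10 and 18. After SNC it was 57.9, 74.0 and 51.7 CPM in samples 13, 16 and 17-2 at 1 d, 17.2, 18.1 and 30.6 CPM in samples 14, 15 and 17-3 at 3 d, and 49.7, 62.3, 13.8, 44.3 and 41.6 CPM in samples S, 8, 9, 19-1 and 19-2 at 7 d. Sham 18 was above 3 of the 11 SNC samples. The difference was 2.38 on the log2(CPM + 1) scale (exact permutation p = 0.0110, adjusted 0.0275), and it was 0.85 with a permutation p of 0.497 when cells were thinned to 20000 UMIs. Shams 4 and 10 are both of 2019, where samples S, 8 and 9 were above them; of 2020 there is sham 18 alone, and the 8 SNC samples of that year lay on both sides of it.

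The other classes did not pass the adjusted threshold. In PEP2-like neurons Gsta4 was 24.7 ± 27.4 CPM after SNC (n = 12) and 4.64 ± 5.36 CPM in sham (n = 4), a difference of 2.31 (exact permutation p = 0.0313, adjusted 0.0522), with 7 of the 12 SNC samples above all sham samples. In PEP3-like neurons the means were 14.5 ± 15.7 CPM (n = 8) and 5.19 ± 7.92 CPM (n = 3), and in NP-like neurons 22.9 ± 19.9 CPM (n = 5) and 8.32 ± 13.3 CPM (n = 3), with adjusted exact permutation p of 0.167 and 0.214. Classes were not compared with each other. In the added sham libraries Gsta4 was 17.3 ± 8.81 CPM in NF-like neurons (9.01 to 30.7 CPM, n = 5) and 17.2 ± 12.0 CPM in SST-like neurons (8.06 to 41.0 CPM, n = 6). The 5 NF-like values were all above those of the 3 labelled sham samples and inside the range of the SNC samples. The labelled and added libraries were made apart, so their difference was not tested.

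**Figure D3:**
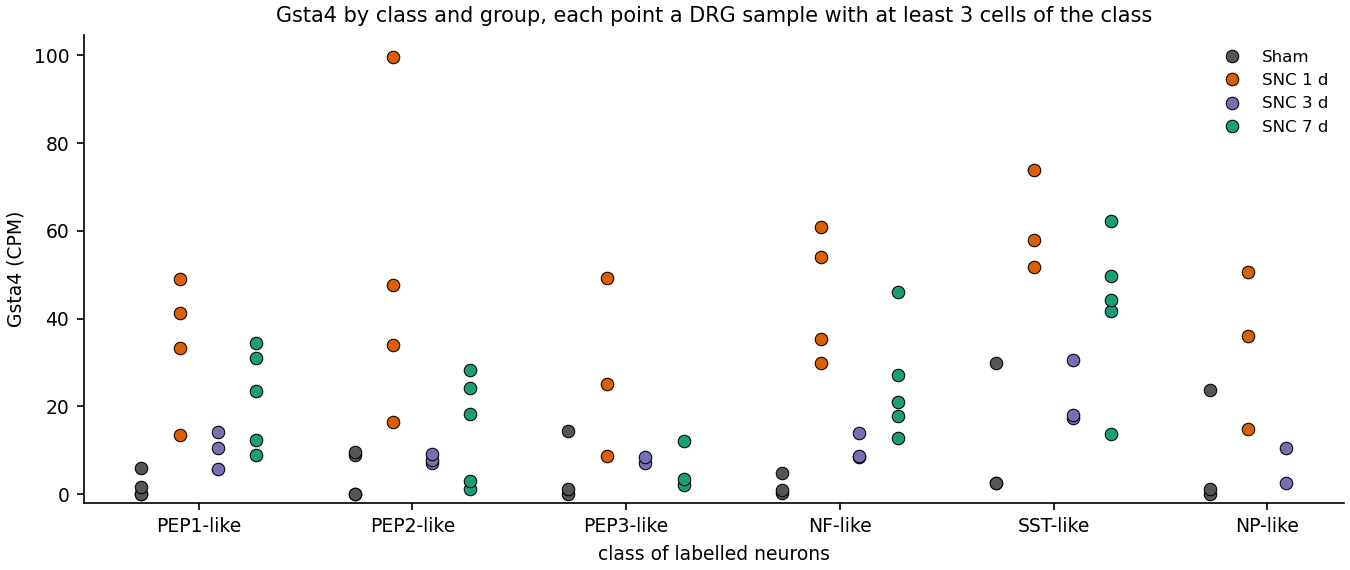
Gsta4 level (CPM) by neuron class and group, each point a DRG sample with at least 3 cells of the class, with PEP1-like neurons shown for description. In NF-like neurons the 12 SNC samples lie above the 3 sham samples, and in the 4 other tested classes some SNC samples lie at or below a sham sample.

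In PEP1-like neurons, the contrast by which Gsta4 was chosen, the gene was 5.94, 0, 0 and 1.56 CPM in shams Xin, 4, 10 and 18. It was 13.5 to 49.0 CPM at 1 d, 5.61 to 14.1 CPM at 3 d and 8.87 to 34.4 CPM at 7 d. The sham values rest on 6 UMIs in 26 cells. Over clusters, Gsta4 was not highest in PEP1-like neurons: its mean over samples was 17.8 ± 15.6 CPM there, 38.4 ± 31.3 CPM in SST-like cluster 5 and 52.1 ± 40.7 CPM in cluster 8. In the added libraries the highest mean was 57.2 ± 24.9 CPM, in the 17 cells of the unnamed cluster 6 (n = 4 libraries).

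The other glutathione transferases and peroxidases overlapped between groups. Gstp1 was 332 to 408 CPM in the 4 sham samples, 320 to 405 CPM at 1 d, 337 to 362 CPM at 3 d and 255 to 413 CPM at 7 d. Gpx1 was 37.2 to 163 CPM in sham and 73.2 to 233 CPM in the SNC samples, with the lowest value in sham Xin and the highest in sample 19-1. Gpx3 was 10.2, 24.1, 67.5 and 85.0 CPM in shams Xin, 4, 10 and 18. It averaged 68.7 ± 24.2 CPM at 1 d (n = 4), 29.6 ± 15.3 CPM at 3 d (n = 3) and 22.3 ± 11.6 CPM at 7 d (n = 5), which is within the spread of the sham samples. Its log2 fold change was -1.11 (SE 0.50) at 7 d, with an unadjusted p of 0.043 and an adjusted p of 1.00 in edgeR.

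Sod1, the cytosolic dismutase, varied little between samples. It was 698, 670, 561 and 524 CPM in shams Xin, 4, 10 and 18, and 564, 476, 467 and 507 CPM in samples 13, 16, 17-1 and 17-2. The groups overlapped, with sample 13 above shams 10 and 18. Outside the PEP1-like cluster its log2 fold change at 1 d was -0.39 (SE 0.11), with an unadjusted p of 0.0025 and an adjusted p of 0.546 in edgeR. Sod2 was 475 to 835 CPM in sham and 490 to 690 CPM in the SNC samples, and Txnrd1 was 321 to 365 CPM and 259 to 437 CPM. The log2 fold changes of Txnrd1 lay between -0.044 and 0.091 over all labelled neurons.

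Cluster 8 held most of the Sod3 and Gsta1 UMIs. Without it, the log2 fold change at 7 d kept its sign for Sod3 and changed sign for Gsta1. Sod3 was 11.7, 1.91, 6.65 and 4.65 CPM in shams Xin, 4, 10 and 18. It was 3.10, 2.7, 28.3 and 10.5 CPM in samples 13, 16, 17-1 and 17-2 at 1 d, 2.79, 0.45 and 0.54 CPM at 3 d and 0.63 to 2.86 CPM at 7 d. The 1 d samples overlapped with sham, with 17-1 above all 4 sham samples, and the 3 d and 7 d samples overlapped with sham 4. Its log2 fold change at 1 d was 0.73 (SE 0.76, adjusted p 0.815 in edgeR). Its log2 fold change at 7 d was -2.30 (SE 0.76, unadjusted p 0.0079, adjusted p 1.00 in edgeR), and -2.51 (SE 1.05) without cluster 8. Of the glial markers 0 of 11 tested were called in the same comparison, 4 had an unadjusted p under 0.05, and their median log2 fold change was -0.81, against -0.0061 for all genes. Outside the PEP1-like cluster these were 6 of 11 and -1.19. The summed level of the glial markers was 1593 to 2646 CPM in sham and 1348 to 1889 CPM at 7 d. Their part in the Sod3 value was not tested. The sham values of Sod3 without cluster 8 were 0.38, 1.29, 2.08 and 2.00 CPM. Gsta1 went from -1.22 (SE 0.60) at 7 d with cluster 8 to 0.28 (SE 0.66) without it, with a change of sign, and neither value was called.

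The libraries 19-1 and 19-2, both of 24 neurons at SNC 7 d, differ in the labelled number of directly injured cells, 20 in 19-1 and 4 in 19-2. Gsta4 was 20.8 CPM in 19-1 and 31.5 CPM in 19-2, Gpx1 was 233 and 105 CPM, Gpx3 was 11.5 and 19.0 CPM, and Gsta1 was 13.0 and 3.67 CPM. Txnrd1 (268 and 259 CPM), Sod1 (514 and 535 CPM) and Sod2 (516 and 540 CPM) were close. With 1 library of each kind there is no test.

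Within the SNC samples, neurons were split by Sprr1a, at least 100 CPM or below, to set cells with a high level of an injury gene against the others of the same sample. This gave 335 Sprr1a-high and 380 Sprr1a-low cells in 12 samples. Since 36.3% of labelled sham neurons were also Sprr1a-high, and 0 of 503 added neurons (a count of 0 allows a share of up to 0.596%), the split is not one of crushed against spared cells. Over all genes 3254 of 12110 (26.9%) were called, and of the 9 enzymes tested 3 were: Sod2 and Txnrd1 were higher and Gpx3 was lower in Sprr1a-high cells.

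Levels in this split were scaled by edgeR's TMM factors. Sod2 was 647 ± 101.9 CPM in Sprr1a-high and 521 ± 86.9 CPM in Sprr1a-low neurons (SD, n = 12), and it was higher in the high cells in 11 of 12 samples. The exception was sample 8, with 556 against 687 CPM. The log2 fold change was 0.32 (SE 0.06, adjusted p 0.0013 in edgeR with the DRG sample as a block). Txnrd1 was 391 ± 43.7 CPM against 336 ± 78.3 CPM, again higher in 11 of 12 samples with sample 8 as the exception (398 against 519 CPM), and its log2 fold change was 0.24 (SE 0.06, adjusted p 0.0068). Gpx3 was 30.6 ± 23.7 CPM against 48.5 ± 31.2 CPM and lower in the high cells in 10 of 12 samples, with a log2 fold change of -0.74 (SE 0.16, adjusted p 0.0027). Gsta4 was 27.1 ± 20.3 CPM in the high and 29.2 ± 15.9 CPM in the low cells, with a log2 fold change of -0.21 (SE 0.15, adjusted p 0.323). Gpx1, Gstp1, Gsta1, Sod1 and Sod3 were not called either.

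The neuron classes were unequally spread over the split. PEP1-like neurons made up 36.1% of the high and 10.5% of the low cells, PEP2-like neurons 30.7% and 11.1%, and PEP3-like neurons, where Gpx3 is highest, 1.49% and 20.5%. The split was therefore repeated within classes, an alternative added after seeing the data. Within PEP1-like, PEP2-like and NF-like neurons 0 of the 7 enzymes tested were called by edgeR, with 16 of 8924, 117 of 8207 and 513 of 10531 genes called in all. The log2 fold change of Sod2 was -0.067, 0.00069 and 0.050 in these classes, that of Txnrd1 was -0.14, -0.24 and -0.074, and that of Gpx3 was -0.17, -0.095 and 0.48. Within SST-like neurons of 4 samples, Sod2 (0.49, SE 0.08, adjusted p 0.00052) and Txnrd1 (0.65, SE 0.13, adjusted p 0.0035) were called, with 873 of 8672 genes called in all. There the split followed the clusters: 49.1% of SST-like cluster 5 and 2.38% of cluster 7 neurons after SNC were Sprr1a-high, and cluster 5 had more Sod2 (738 against 465 CPM) and more Txnrd1 (337 against 228 CPM). Cell class and Sprr1a cannot be told apart in the pooled split.

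**Figure D4:**
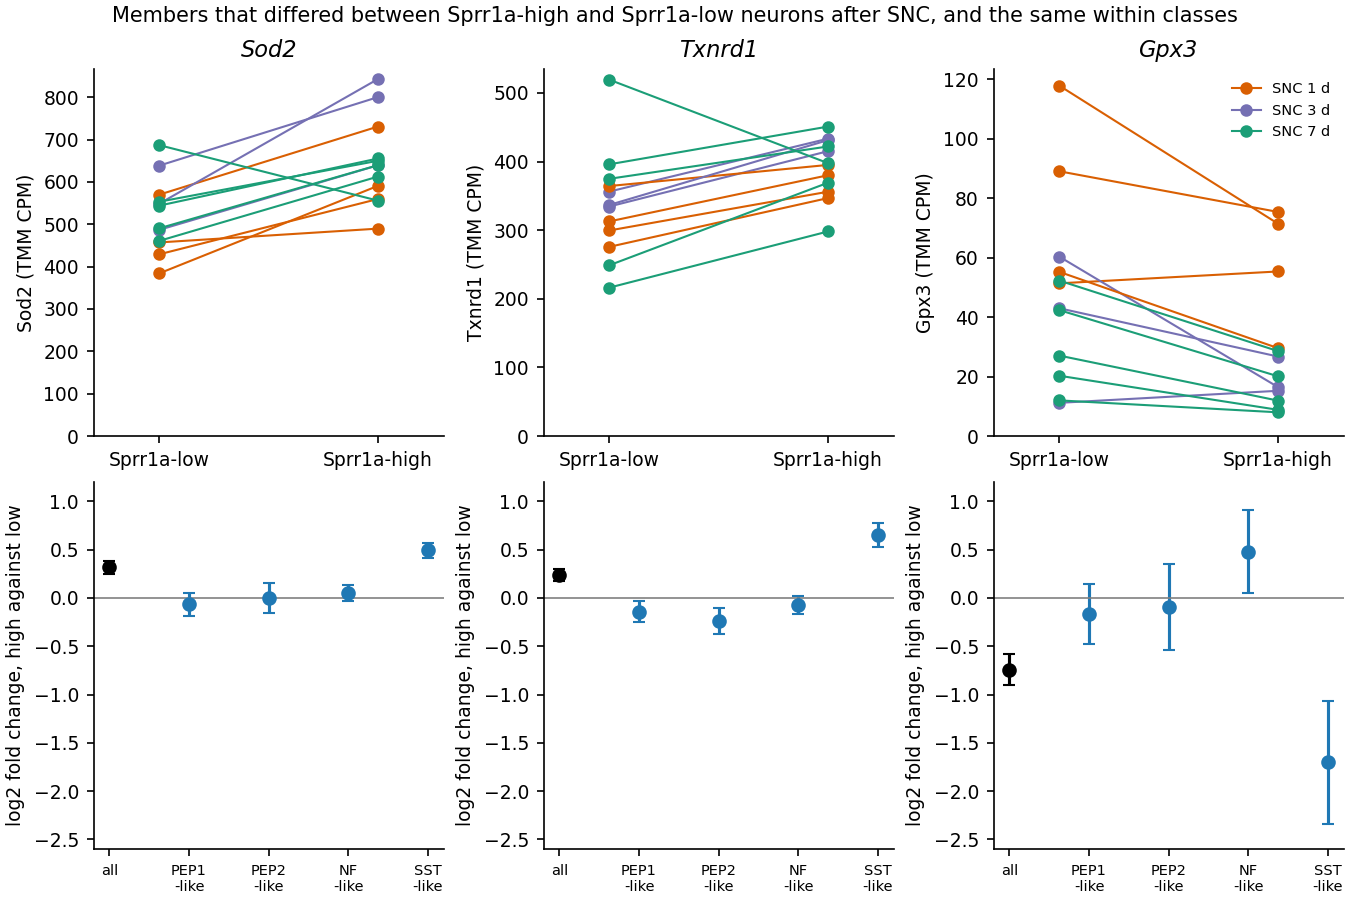
Top, level of Sod2, Txnrd1 and Gpx3 (TMM-scaled CPM) in Sprr1a-low and Sprr1a-high neurons of each SNC DRG sample, with a line joining the values of a sample. Bottom, log2 fold change of high against low cells over all classes and within 4 of them, with bars for 1 SE. Sod2 and Txnrd1 are higher in the high cells of 11 of 12 samples, Gpx3 is lower in 10 of 12, and the folds within PEP1-, PEP2- and NF-like neurons differ from those over all classes.

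The wider antioxidant pathways were described with 8 lists of 112 genes, of which 108 are in the files. In the comparisons of SNC with sham, 0 of the 95 listed genes tested were called in each of the 8 fits. In the Sprr1a split, 26 of 90 tested were called (28.9%, against 26.9% of all genes), 14 higher and 12 lower. Of 16 glutathione transferases tested, 4 were called and all were lower in the high cells: Gstt1 by 0.70 on the log2 scale (SE 0.25, adjusted p 0.047 in edgeR), Mgst1 (-0.34), Gstm4 (-0.23) and Gstk1 (-0.22). The list median was -0.072 and that of all genes -0.0068. Of 20 genes of the thioredoxin, peroxiredoxin and glutaredoxin list, 8 were called, 6 higher and 2 lower, and Txn1, the cytosolic thioredoxin that Txnrd1 reduces, was higher by 0.18 (SE 0.06, adjusted p 0.026).

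The list of Nrf2 and other antioxidant targets had 6 of 16 genes called, 4 higher and 2 lower. Over all genes of this split 3254 of 12110 (26.9%) were called, and the list counts stand beside that share. Listed genes outside the set of enzymes were not read within classes, so class and Sprr1a cannot be told apart for them. The metallothioneins Mt2A (-1.37, SE 0.26, adjusted p 0.00098 in edgeR) and Mt3 (-1.02, SE 0.14, adjusted p 0.00013) fell most, and Mt3 is also a PEP3 marker. Nfe2l2, which encodes Nrf2 itself, was higher by 0.19 (SE 0.05). Bach1, a repressor of Nrf2 targets, had the largest rise among the called genes of the pathway lists, at 0.84 (SE 0.22), from 4.99 ± 2.38 CPM to 8.88 ± 4.30 CPM. Prdx6 rose by 0.65 and Glrx by 0.52, each higher in 12 of 12 samples. Nfe2l2, Bach1, Prdx6 and Glrx were singled out after their values were seen. Of glutathione synthesis and recycling 3 of 13 were called (Slc3a2 higher and Gclm lower among them), of glutathione peroxidases 1 of 4 (Gpx3), of superoxide dismutases and catalase 1 of 5 (Sod2), of aldehyde and methylglyoxal clearance 2 of 9 (Glo1 higher, Akr1b1 lower) and of selenoprotein synthesis 1 of 7 (Selenom, lower).

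Other lists also held called genes in the same split, in which 26.9% of all genes were called. Sprr1a, which defined the split, differed by construction. The other 6 injury genes tested were all higher, led by Gal at 1.27, Sox11 at 1.18, Atf3 at 0.99 and Ecel1 at 0.89. Gal was also among the markers used to name PEP1-like and PEP2-like neurons, which were more frequent among the high cells. Of the neuron markers Rbfox3 (-0.71) and Snap25 were lower and Tubb3 higher, 3 of 6. Of the glial markers 3 of 10 were called, Glul, Mbp and Pmp22, all higher, while Apoe, Fabp7 and Sparc were not called. No gene was called among 3 immune markers and 1 endothelial or fibroblast marker tested, and no red blood cell marker was tested.

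The added sham libraries tested whether the enzymes differ with time after a sham operation. Days 1, 3 and 7 (4 libraries) against day 0 (3 libraries) gave 0 calls among 16175 genes (0%) in edgeR, with 1514 at an unadjusted p under 0.05, while DESeq2 called 195 genes and none of the 8 enzymes it gave an adjusted p for. Gstp1 had the lowest p of the 9 enzymes tested: it was 370, 347 and 386 CPM at day 0 and 304, 300, 222 and 329 CPM later, all 4 below the 3 day 0 values, with a log2 fold change of -0.36 (SE 0.14, adjusted p 0.53). Gpx1 was 32.1 and 36.2 CPM in S1 and S2 and 164 CPM in S7 at day 0, and 110 to 156 CPM later. S1 and S2 held no NF-like cells and S7 held 13, and Gpx1 was 206 ± 11.5 CPM in NF-like neurons of these libraries and 26.9 ± 11.4 CPM in NP-like cluster 3. Without S7, 4 enzymes were called among 1978 of 16742 genes: Gpx1 (1.91), Txnrd1 (0.81), Gsta1 (3.76) and Sod3 (4.62), each higher at the later days. Cluster 0, which led for Gsta1 and Sod3, had 0 cells in S1 and 3 in S2. It had 23 cells in S7 and 17 to 38 in the later libraries. The part of cell class in these values was not tested.

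Levels in labelled and added sham neurons are given side by side, without a test, since the libraries were made apart. Sod2 was 475 to 835 CPM in the 4 labelled sham samples and 214 to 326 CPM in the 7 added libraries, Txnrd1 was 321 to 365 CPM and 139 to 295 CPM, and Gpx3 was 10.2 to 85.0 CPM and 3.98 to 13.6 CPM. Sod1 overlapped, at 524 to 698 CPM and 534 to 621 CPM. Labelling, library series and sham treatment cannot be told apart here.

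For 3 enzymes, the genes with the most similar profile were sought over 27 points, each a neuron class in a group, among 8388 genes with a mean of at least 10 CPM. These points share samples and cells, so the correlations are a description. For Gsta4 they were Tmem63c (Pearson r = 0.70), Rxrb (0.67), Vps8 (0.67), Ppp1r15a (0.64) and Erbin (0.64). For Gpx3 they were Kcnmb2 (0.88), Gstm1 (0.86), Scara3 (0.85), Cbr3 (0.85) and Smim3 (0.84). For Txnrd1 they were Phactr2 (0.87), Htra1 (0.86), Bdkrb2 (0.84), Eid1 (0.83) and Asic3 (0.83). The best matches of Gsta4 were weaker than those of Gpx3 and Txnrd1.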

How the data were processed

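Single DRG neurons were read by a Smart-seq2 method with 3′ UMIs. Per the labels and the methods, the authors aligned reads with STAR to Rnor_6.0, assigned them with featureCounts and collapsed UMIs with UMI-tools. The deposited values are raw UMI counts per gene and cell, with no normalization. The 17 labelled libraries form 16 DRG samples, because S-2 and S-3 are both of DRG sample S.

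Cells with at least 500 genes, 1000 UMIs and under 5% mitochondrial UMIs were kept, with 24 to 96 per labelled sample and a median of 239286 UMIs per cell. The added libraries had 44 to 96 cells and a median of 340145 UMIs. Replicates differed by more than counting noise (chi-square per degree of freedom 10.7 to 118), and no cells were identical. Cells were clustered in Seurat 5.3.0 (2000 variable genes, 40 components, resolution 0.5), labelled and added sets apart, and clusters were named from markers. No doublet caller was run, since cells were picked singly.

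UMIs were summed per DRG sample and tested with edgeR 4.0.16 (TMM, filterByExpr, quasi-likelihood F test, Benjamini-Hochberg adjustment over all genes, threshold 0.05) in R 4.3.3. For the Sprr1a split the DRG sample was a block, and the day of reverse transcription, from the table of DRG samples, was a block in an alternative. DESeq2 1.42.0 was an alternative. Single values were compared by two-sided exact permutation tests that listed every split of the samples. The routine was checked against SciPy 1.17.1 on random numbers. CPM are the UMIs of a gene relative to all UMIs of the summed cells, scaled to a common total. Intervals and limits on counts of 0 cover counting error only. The tests were checked on simulated counts with 200 genes changed. For SNC 7 d against sham over all labelled neurons, edgeR found 38.1% of log2 changes of 1 and 76.8% of 2. Of its 128 calls 6 were false, and of 175 calls by DESeq2 37 were false. For the added libraries edgeR found 11.5% and 50% of such changes, with 3 of 72 calls false. DESeq2 had 63 of 176 calls false there. Changes of these sizes can thus be missed by edgeR, and calls by DESeq2 alone are less certain. The methods state that several rats were harvested at each time point, but the labels do not tie samples to rats, so p-values measure the spread between samples, which may be in part technical.

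The enzymes and gene lists were chosen with earlier results of these data known. The text names every enzyme of the set, listed genes that passed a test (up to 5 at either end) or were among the 3 most abundant of their list, and the 5 genes most like Gsta4, Gpx3 and Txnrd1. Alternatives were another normalization, no filter on low counts, thinning, other clustering settings, other Sprr1a limits, year of reverse transcription, merged samples and leaving out each sample. Some listed genes are not reported here by name.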

Additional observations from a re-analysis of the deposited data

Results flagged for a closer look

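In each group of 4 or 5 DRG samples, 60 groups in all, a sample was marked when its distance to its neighbour was large against the range of the group, which marks about 1 in 20 groups by chance. This marked 7. Levels are TMM-scaled CPM.

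Gpx1 at SNC 7 d was 229 CPM in sample 19-1 over all labelled neurons, with the next sample at 104 CPM and the lowest at 73.5 CPM, and outside the PEP1-like cluster it was 245 CPM against 104 CPM. Gpx1 outside the PEP1-like cluster was 132 CPM in sample 13 at SNC 1 d, below the next sample at 154 CPM.

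Gsta1 at SNC 1 d was 28.7 CPM in sample 17-1, with the next at 13.7 CPM, and outside the PEP1-like cluster it was 33.8 CPM against 16.1 CPM. Sample 17-1 had 12.5% of its cells in the cluster high in glial genes. Sod3 at SNC 7 d was 2.76 CPM in sample S, with the next at 0.96 CPM, and outside the PEP1-like cluster it was 3.25 CPM against 1.13 CPM. Sample S had 6.25% of its cells in that cluster. Its part in these values was not tested.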

How the results depend on the processing

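In the SNC comparisons no alternative called an enzyme. In the Sprr1a split, 3 enzymes became 5 after thinning to 20000 UMIs, 1 with Atf3 in place of Sprr1a, and 0 within each of PEP1-like, PEP2-like and NF-like neurons, where fewer cells were tested. The log2 fold change turned for Gpx3 within NF-like neurons (0.48), for Sod2 within PEP1-like neurons (-0.067) and for Txnrd1 within PEP1-like, PEP2-like and NF-like neurons (-0.14, -0.24 and -0.074). Leaving out 1 sample gave 3 to 4 enzymes. In the added libraries, leaving out 1 gave 0 to 4 enzymes, with 4 without S7.

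Gsta4 by class changed its side of the threshold in SST-like neurons when thinned (0.85, log2(CPM + 1)), in NP-like neurons at clustering resolution 0.3 (2.17), and in PEP2-like neurons with a pseudocount of 0.1 (3.87) or thinned (3.40). Leaving out 1 sample gave 1.75 to 2.88 in PEP2-like neurons, past the threshold without sham Xin, sham 18, sample 9 or sample 19-2, and 3.21 to 3.46 in NF-like neurons, past it each time. In classes with 3 sham samples no sham was left out. The share of cells with a Gsta4 UMI differed by 15.8 points within the earlier year (exact permutation p = 0.2) and by 17.6 to 23.9 points when 1 sample was left out, and it did not pass the threshold without sham 4, 10 or 18. The causes were not tested.

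With a replicate block of samples reverse transcribed on the same day, added after seeing the data, 0 enzymes and 0 to 3 genes in all were called, and Gsta4 outside the PEP1-like cluster moved to 5.47 at 1 d. The Sprr1a split has the DRG sample as a block. Gsta4 rests on few UMIs in shams 4 and 10.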
